A study of Mus musculus with 5 samples.

Results

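The genes of mitosis are followed here across 5 arrays of mouse mammary epithelial cells. The set was named as 47 genes, and each was read from the probe set annotated to that gene alone, with the highest mean over all arrays kept where a gene had several. This gave 45 measured genes out of 22180 tested, and 0 of the 45 had more than 1 such probe set. Ccnb1, a cyclin of mitotic entry, had no probe set listed under its name in the annotation used. Hjurp, the chaperone that loads the centromeric histone, had only a probe set with several symbols. Neither is given a value.

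The knockout mice carried MMTV-Cre and floxed Mmp14 alleles, written MMTV-Cre+/Mmp14(f/f), and the control littermates, labelled wild type, carried the same Mmp14(f/f) alleles without Cre. All were congenic FVB/NJ mice of 4 weeks. Inguinal glands, free of the lymph node, were digested with collagenase, and stromal cells were reduced by centrifugation before the RNA was taken from the epithelial aggregates. There were 2 knockout and 3 wild-type arrays, each made from 10 ng of RNA. The transgene puts Cre under the promoter of the mouse mammary tumour virus, which is used to direct Cre to mammary epithelium. Which cells had lost the alleles was not measured on these arrays. MMP14 is a membrane-bound metalloproteinase that cleaves matrix at the cell surface, and the arrays asked how its loss from the epithelium alters gene expression in the growing gland. The labels call the arrays biological replicates and leave the number of mice behind each one unstated. The p-values therefore reflect variation among the 5 samples alone, part of which may be technical.

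A dividing cell enters mitosis when cyclin-bound CDK1 is switched on. Microtubules and motor proteins then build a spindle, kinetochores attach the chromosomes to it, and a checkpoint holds the cell until all are attached. The anaphase-promoting complex ends the arrest by marking cyclins and securin for destruction, and cytokinesis divides the cell. Transcripts of many of these genes peak in G2 and M phase. In bulk tissue their level is therefore widely used as a measure of how many cells are dividing. In the pubertal mammary gland division is concentrated in the terminal end buds at the tips of the growing ducts.

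Many promoters of this class hold a short element, the cell cycle genes homology region (CHR), downstream of CCAAT boxes that bind NF-Y. The DREAM complex silences genes through the CHR in resting cells, and B-MYB and FOXM1 activate them through it in G2. RefSeq promoter windows (GRCm38.p6, 250 bases before to 50 after a start site) were at hand for 40 of the 47 genes, as 45 windows. The 150 bases before the start are shown for 4 genes, 5′ to 3′ on the gene's strand. Only genes whose window held both CHR and CCAAT letters could be shown, so the choice fixed that these 4 hold them. Cdk1 and Top2a were among the 5 genes with the widest gap between the knockout arrays. The others of these 5, Ndc80, Anln and Cep55, had no CCAAT letters in their windows and are not shown. Kif11 had the largest moderated t of the spindle genes, and Gas2l3 was the single gene whose knockout and wild-type arrays did not overlap. Capitals mark the letters searched for on either strand: TTTGAA or, as a variant, TTCGAA for the CHR, and CCAAT for NF-Y.
Cdk1 (chr10:69352913-69353062, minus strand): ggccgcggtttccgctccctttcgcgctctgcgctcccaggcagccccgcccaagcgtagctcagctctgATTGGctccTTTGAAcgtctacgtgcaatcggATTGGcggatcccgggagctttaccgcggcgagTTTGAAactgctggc
Top2a (chr11:99024190-99024339, minus strand): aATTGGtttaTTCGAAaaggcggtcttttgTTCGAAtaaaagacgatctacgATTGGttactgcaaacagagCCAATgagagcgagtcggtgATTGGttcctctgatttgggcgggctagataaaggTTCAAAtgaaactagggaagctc
Kif11 (chr19:37376232-37376381, plus strand): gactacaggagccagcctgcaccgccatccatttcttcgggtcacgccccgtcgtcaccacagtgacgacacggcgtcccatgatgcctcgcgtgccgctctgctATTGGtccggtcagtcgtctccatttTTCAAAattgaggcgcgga
Gas2l3 (chr10:89443968-89444117, minus strand): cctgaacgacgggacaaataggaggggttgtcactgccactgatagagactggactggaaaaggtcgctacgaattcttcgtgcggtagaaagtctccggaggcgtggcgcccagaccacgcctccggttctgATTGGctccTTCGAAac

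In the bases shown for Cdk1 the CHR letters nearest the start began 15 bases before it and the nearest CCAAT letters 48 bases before it. The same distances were 23 and 58 bases for Top2a, 19 and 45 for Kif11, and 8 and 17 for Gas2l3. The CHR letters occurred in 35 of the 45 windows of the mitosis genes (77.8%), against 19.2% of 32851 windows of the whole table and 17.0% of those of genes on the array. TTTGAA alone was in 73.3% of the mitosis windows and in 17.9% of all windows. CCAAT occurred in 77.8% against 37.4%, and both kinds of letters in 66.7% against 7.52%. In 1 window of a mitosis gene the CHR and CCAAT letters overlapped. Counting only CHR letters from 60 bases before to 50 after the start, limits chosen after the positions were seen, gave 73.3% of mitosis windows and 5.90% of all windows. These are matches of letters and say nothing of binding on these arrays. The gap between the knockout arrays, described next, had a median of 0.50 log2 units over the 31 measured genes with CHR letters and of 0.58 over the 7 without.

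The mitosis genes did not separate the genotypes, but they separated the knockout arrays from each other. On the array of knockout 2 they read below the wild type, and on that of knockout 1 most read at or above it. Relative to the wild-type mean, their mean signal was 0.16 log2 units higher in knockout 1 and lower in knockout 2, at -0.44. The wild-type arrays lay at 0.04, 0.00 and -0.04. Knockout 2 gave the lowest of the 5 values for 39 of the 45 genes, which over all genes happened for 22.5%. Knockout 1 gave the highest value for 29 genes, against 17.0% of all genes. Knockout 2 lay below all wild-type arrays for the same count of 39 (23.7% of all genes), and knockout 1 above all of them for 29 (18.4%). Knockout 1 read above knockout 2 for 43 genes (38.4% of all genes), the other 2 had equal values on both arrays, and the gap exceeded 0.5 log2 units for 23 genes (3.93% of all genes). Equal values on both knockout arrays occurred for 4635 of all genes, which lowers these shares. Over the 12780 genes in the same range of mean signal, knockout 2 was lowest for 27.9% and knockout 1 highest for 21.2%. Knockout 1 was above knockout 2 for 46.1% of them, and the gap exceeded 0.5 for 6.18%. The median gap was 0.50 over the mitosis genes, 0.00 over all genes and 0.00 over those 12780 genes. These gaps compare 1 array with 1 array, so they carry no test.

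**Figure D1:**
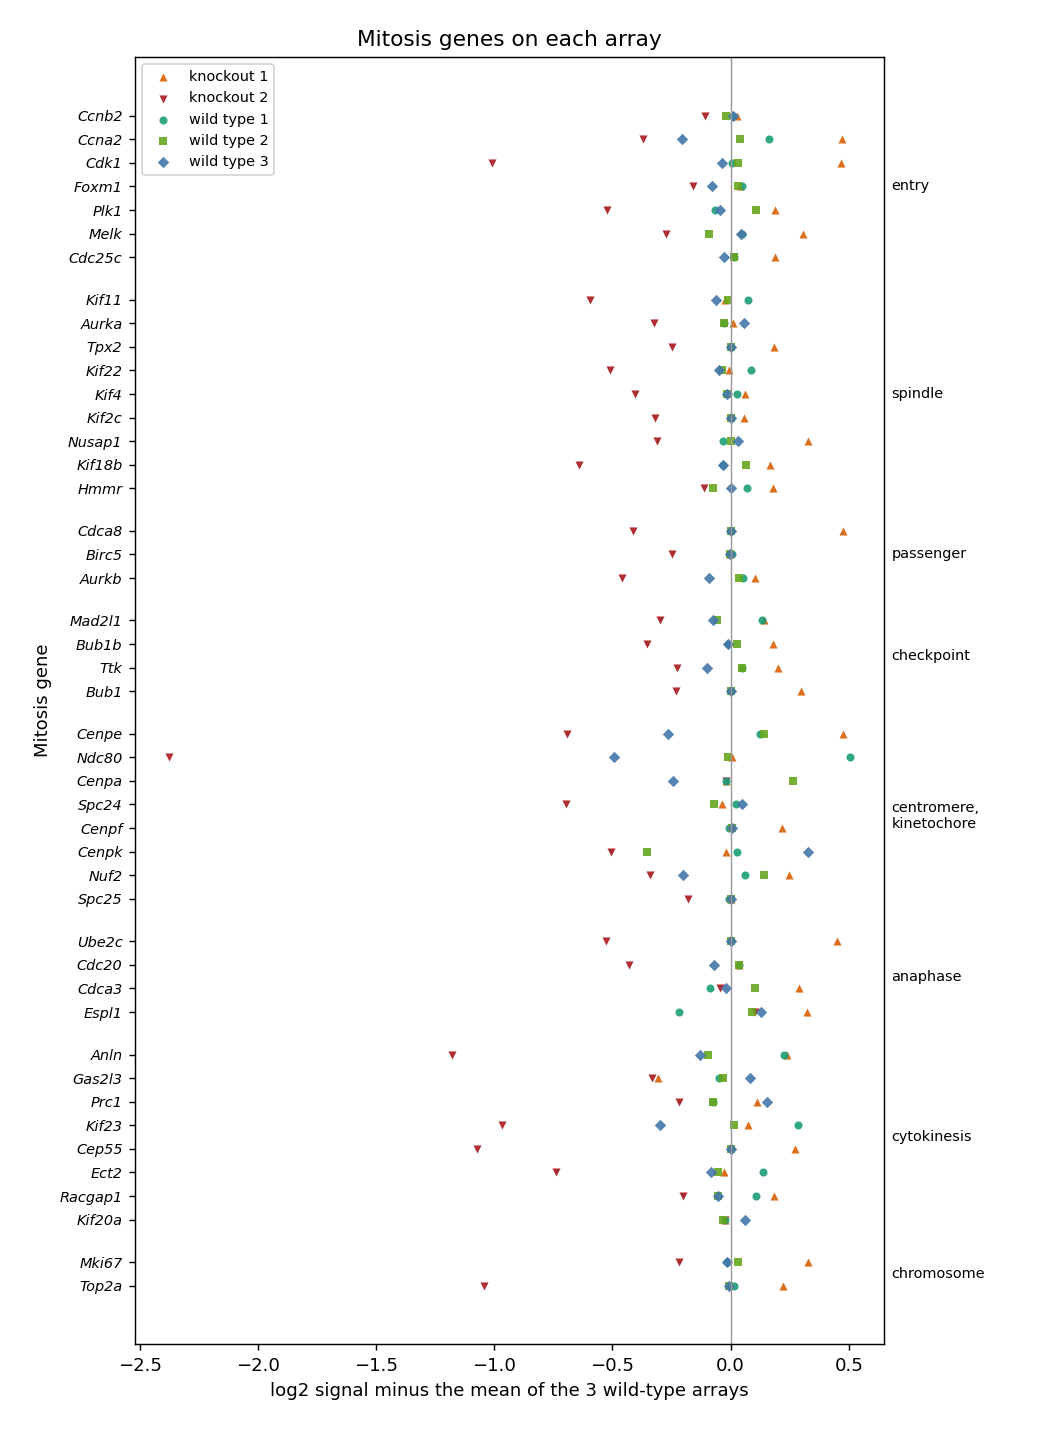
Log2 signal of each of the 45 measured mitosis genes minus the mean of its 3 wild-type arrays, with 1 point per array and the genes grouped by role; equal values lie on top of each other. Points of knockout 2 lie farthest left for 39 genes, and points of knockout 1 farthest right for 29.

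Against the wild type, 0 of the 45 genes passed limma's test (adjusted p from 0.919 to 1.00), as 0.00% of all genes did. At an unadjusted p under 0.05 there was 1 gene, Gas2l3, which was lower; 1.30% of all genes passed, 0.595% as lower. The knockout mean was lower for 34 genes, against 51.6% of all genes, and the median difference was -0.09 log2 units, against 0.00 over all genes. Both knockout arrays lay below all wild-type arrays for 1 gene (2.80% of all genes), and above all of them for 0 (2.63% of all genes). For 33 genes knockout 1 was above and knockout 2 below the wild-type mean, a pattern that 15.8% of all genes had. The median SE of a difference was 0.18 log2 units for these genes and 0.07 for all genes.

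Leaving out 1 knockout array gave calls in opposite directions. Without knockout 1 the median difference was -0.33 and 14 genes passed limma's test, all lower (7.92% of all genes passed, 4.08% as lower). Without knockout 2 the median was 0.18 and 7 genes passed, all higher (3.76% of all genes passed, 2.08% as higher). Ube2c, Cdca8, Top2a, Cep55, Bub1 and Tpx2 were called both times, as lower in the first fit and higher in the second. In such a fit the remaining knockout array is taken to have the spread of the wild type. Many of the values are equal to 6 decimals: 6 of the 14 genes and 5 of the 7 had 3 identical wild-type values, and 2 and 0 had 5 different values. Such ties lower the estimated spread.

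The array numbers in the labels form 2 runs of consecutive numbers, and nothing says what a run stands for. The first run covers wild type 1 and 2 with knockout 1, and the second covers knockout 2 with wild type 3. The median difference of the mitosis genes was 0.15 within run 1 and -0.34 within run 2, the latter from 1 array per genotype. Over all genes it was 0.00 in both. Wild type 3, in the same run as knockout 2, lay at -0.04 from the wild-type mean over the mitosis genes, where knockout 2 lay at -0.44. Each run has only 1 knockout array, so the gap between the knockout arrays is also a gap between the runs. The part of the run in it was not tested.

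**Figure D2:**
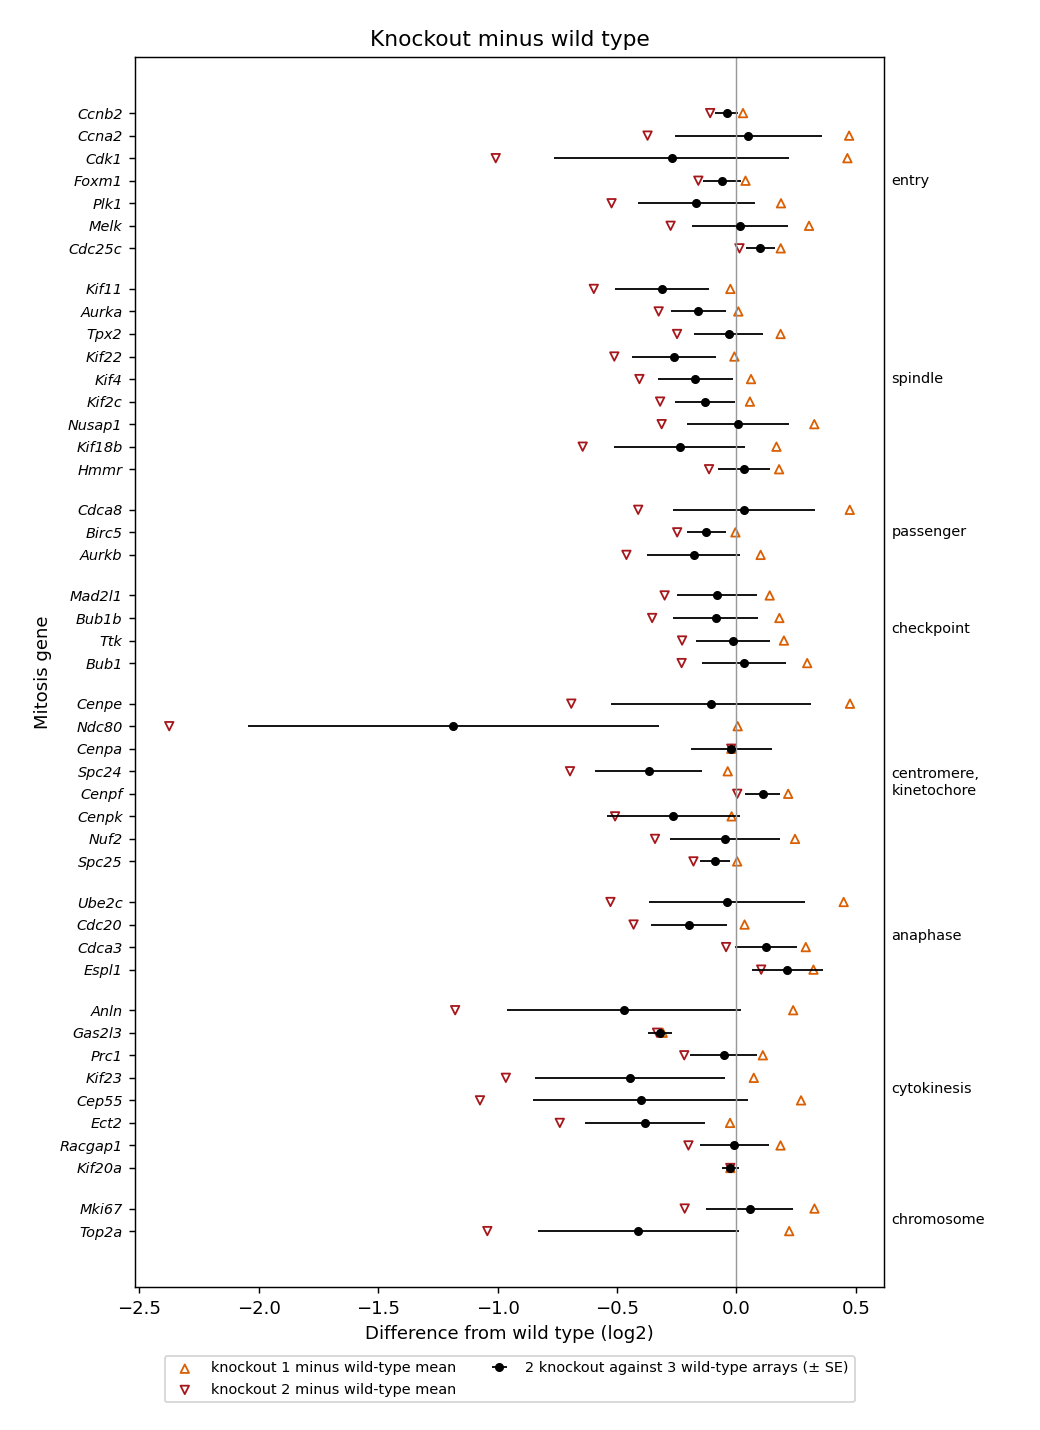
Knockout minus wild type in log2 units for each of the 45 mitosis genes: filled points with bars are limma's differences ± SE (2 against 3 arrays), and open triangles are the knockout arrays taken singly. For 33 genes the open triangles lie on opposite sides of 0, with knockout 1 on the right.

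The genes are taken below in the order of their roles. Where 5 values are listed they are log2 signals in the order knockout 1, knockout 2, wild type 1, 2 and 3. Differences are knockout minus wild type with limma's SE (n = 2 and 3), and no adjusted p was under 0.919. Signals of different probe sets are not compared.

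Of the genes of mitotic entry, 7 of 8 were measured. Cdk1, the kinase that drives entry, read 6.23, 4.76, 5.77, 5.79 and 5.73. The wild-type arrays lay within 0.07 of each other, knockout 1 above them and knockout 2 about 1 log2 unit below. The signal was thus 2.78-fold higher in knockout 1 than in knockout 2, while the difference between the genotypes was -0.27 ± 0.49. Its cyclin partner of S and G2 phase, Ccna2, read 6.39, 5.55, 6.08, 5.96 and 5.71 (0.05 ± 0.31). Ccnb2, a B-type cyclin, read 6.82, 6.68, 6.80, 6.77 and 6.80 (-0.04 ± 0.05), with the same order of the knockout arrays in a much narrower range. Cdc25c, the phosphatase that activates CDK1, read 4.07, 3.90, 3.90, 3.90 and 3.86 (0.10 ± 0.06), and here knockout 2 lay among the wild type. The kinase Plk1 had a gap of 0.71 between the knockout arrays and the kinase Melk one of 0.58. Foxm1, the transcription factor that activates this gene class, had a gap of 0.20, at 5.14 and 4.94. Of the 7 genes, 4 had a lower mean in the knockout and 6 were lowest on knockout 2.

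All 9 genes of spindle motors and microtubule-associated proteins were lowest on knockout 2, and 7 had a lower mean in the knockout. Kif11, the kinesin that pushes the spindle poles apart, read 6.14, 5.57, 6.24, 6.15 and 6.10. Knockout 1 lay within the wild-type range and knockout 2 about 0.5 units below it (-0.31 ± 0.20). Aurka, a kinase of the spindle poles, read 5.38, 5.04, 5.34, 5.34 and 5.43 (-0.16 ± 0.12). The widest gap of the group was 0.81, for Kif18b, a kinesin of microtubule ends, and the narrowest 0.29, for Hmmr, a spindle-associated protein that also binds hyaluronan. Kif4, a kinesin bound to chromosomes, had a gap of 0.47, Kif22, a kinesin that moves chromosome arms, 0.50, and Kif2c, a kinesin that shortens microtubules, 0.38. Tpx2, which activates Aurora A, had a gap of 0.43, and Nusap1, which bundles microtubules, 0.64.

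The chromosomal passenger complex corrects faulty attachments. Its kinase Aurkb had a gap of 0.56 between the knockout arrays. Birc5, the survivin subunit, read 5.83, 5.59, 5.85, 5.83 and 5.83 (-0.13 ± 0.08), so knockout 1 was level with the wild type. Cdca8, the borealin subunit, read 6.28, 5.40, 5.81, 5.81 and 5.81 (0.03 ± 0.30). Its knockout arrays stood 0.47 above and 0.41 below 3 equal wild-type values, and the difference between the genotypes was near 0. All 3 genes were lowest on knockout 2.

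The 4 spindle checkpoint genes had the most even pattern. Each was highest on knockout 1 and lowest on knockout 2, and the gaps ran from 0.43 to 0.53. Mad2l1, which inhibits CDC20 at unattached kinetochores, read 6.11, 5.67, 6.10, 5.91 and 5.90 (-0.08 ± 0.17). Bub1b, a pseudokinase of the inhibitory complex, read 5.0, 4.47, 4.81, 4.85 and 4.81 (-0.09 ± 0.18). The kinases Bub1 and Ttk had gaps of 0.53 and 0.43, with genotype differences of 0.03 ± 0.18 and -0.01 ± 0.15.

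The centromere and kinetochore genes were the most varied group, with 8 of 9 measured and gaps from 0.00 to 2.38. Ndc80, the microtubule-binding core of the kinetochore, read 6.45, 4.07, 6.95, 6.43 and 5.95. This was the widest range of any mitosis gene, 5.21-fold between the knockout arrays, and the wild-type arrays spanned 1.00 log2 units as well. Its genotype difference was -1.18 ± 0.86, with a 95% interval from -3.64 to 1.27. Spc24, a subunit of the same complex, read 5.61, 4.95, 5.67, 5.57 and 5.69 (-0.37 ± 0.22). The other subunits Nuf2 and Spc25 had gaps of 0.59 and 0.18. Cenpe, a kinetochore motor, read 6.58, 5.42, 6.23, 6.25 and 5.84 (-0.11 ± 0.42), and its gap of 1.17 was the second widest of the group. Cenpk, a protein of the inner kinetochore, had a gap of 0.49, with 3.82 on knockout 2 and wild-type values from 3.97 to 4.65. Cenpf, which binds the outer kinetochore, had 4.85 on knockout 2, level with the wild type, and 5.07 on knockout 1. Cenpa, the histone that marks centromeres, did not share the pattern: it was 5.62 on both knockout arrays and on wild type 1, with 5.90 and 5.40 on the other wild-type arrays.

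Of the 4 genes of anaphase and protein degradation, 2 were lowest on knockout 2. Ube2c, the ubiquitin-conjugating enzyme of the anaphase-promoting complex, read 7.64, 6.66, 7.19, 7.19 and 7.19 (-0.04 ± 0.33). It was 1.97-fold higher in knockout 1 than in knockout 2, with the wild type between them. Cdc20, the activator of that complex, read 5.32, 4.85, 5.32, 5.32 and 5.21 (-0.20 ± 0.16). Espl1, the separase that cuts cohesin, read 4.06, 3.84, 3.52, 3.83 and 3.87 (0.21 ± 0.15), the highest genotype difference of the set, and wild type 1 was its lowest array. Cdca3, a trigger of entry into mitosis, was at 4.80 on knockout 1 and 4.47 on knockout 2, with wild type 1 at 4.43.

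All 8 cytokinesis genes had a lower mean in the knockout (51.6% of all genes), and 7 were lowest on knockout 2 (22.5%). For 5 of the 8, knockout 1 lay above the wild-type mean and knockout 2 below it. Anln, a scaffold of the contractile ring, read 8.91, 7.50, 8.90, 8.58 and 8.55. Knockout 1 matched the highest wild-type array, and knockout 2 lay about 1 log2 unit under the lowest (-0.47 ± 0.49). Kif23, the motor of the central spindle, had a gap of 1.04 and Cep55, which recruits the abscission machinery, one of 1.34. Ect2, the activator of RhoA at the division plane, had a gap of 0.71, Racgap1, the partner of KIF23 in centralspindlin, 0.39, and Prc1, a bundler of midzone microtubules, 0.33. Kif20a, a kinesin of the midzone, was at 4.59 on both knockout arrays and varied little, with wild-type values of 4.59, 4.58 and 4.68. Gas2l3, which links actin and microtubules, stood apart. It read 7.47, 7.45, 7.73, 7.74 and 7.86, so that the knockout arrays lay close together and below the wild type. The difference was -0.32 ± 0.05, with a 95% interval from -0.46 to -0.18, an unadjusted p of 0.00385 and limma's adjusted p = 0.919. It was -0.27 within run 1 and -0.41 within run 2. As 2.80% of all genes had both knockout arrays below all wild-type arrays, 1 gene of 45 is no more than the background.

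The remaining pair are the proliferation marker Mki67, a protein that coats mitotic chromosomes, and Top2a, the topoisomerase that untangles sister chromatids. Mki67 read 7.0, 6.45, 6.65, 6.70 and 6.65 (0.06 ± 0.18). Top2a read 6.75, 5.49, 6.54, 6.52 and 6.52 (-0.41 ± 0.42). In both, the wild-type arrays lay within 0.05 of each other and the knockout arrays on either side. The mean of Mki67 in the knockout was therefore 6.73 ± 0.38 (SD), level with 6.67 ± 0.03 in the wild type.

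The means of the 45 genes over the 5 arrays ran from 3.74 to 8.49 log2 units. Without detection calls a low signal cannot be told from background. Of the 45 genes, 24 had 5 different values (31.2% of all genes). In these 24 the median gap was 0.58 and knockout 2 was lowest for 22. Over all 6930 genes with 5 different values the median gap was 0.005 and knockout 2 was lowest for 27.8%.

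A separate list of 80 other mitosis genes, of which 74 were measured, showed the same order of the arrays with a smaller gap. Its median gap was 0.33, 57 genes were lowest on knockout 2, and 0 passed limma's test (0 also at an unadjusted p under 0.05). Their mean relative to the wild type was 0.11 in knockout 1 and -0.27 in knockout 2. The 19 kinesin and spindle genes had a median gap of 0.45 and the 8 cytokinesis genes one of 0.74. It was 0.18 for the 23 kinetochore and centromere genes and 0.13 for the 13 genes of condensin, cohesin, securin and the passenger subunit INCENP. For the remaining 11, genes of other mitotic control, it was 0.45. By the moderated t, the leading genes of this list were Bora, an activator of Aurora A (-0.26 ± 0.13), Cdc25a, a CDK-activating phosphatase (0.25 ± 0.14), Cenpm, a protein of the inner kinetochore (-0.09 ± 0.05), and Psrc1, a spindle protein (-0.17 ± 0.10).

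**Figure D3:**
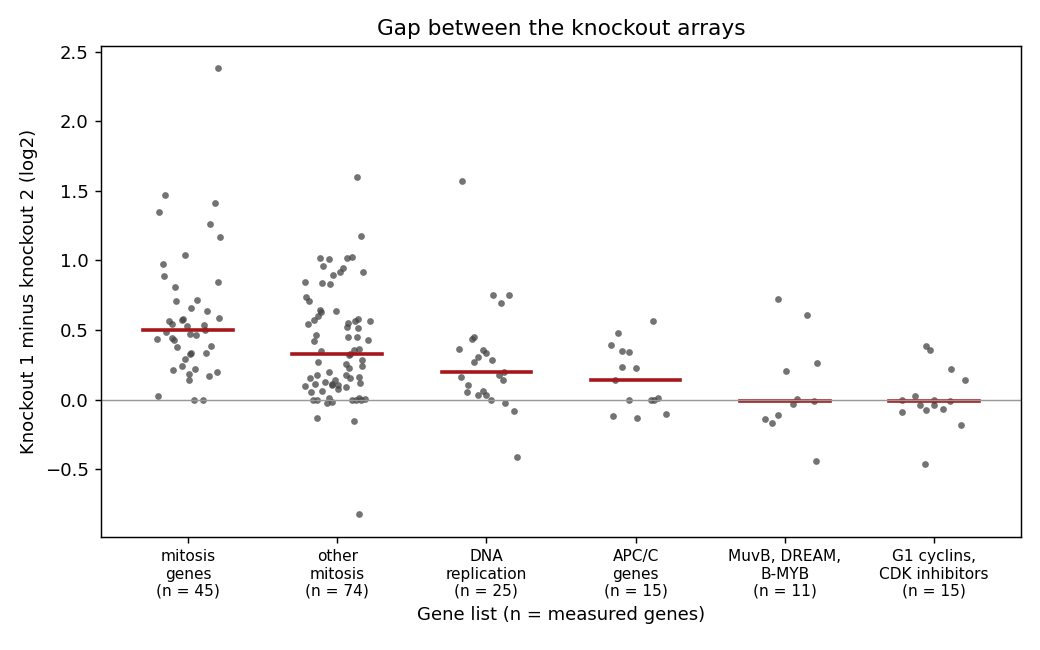
Log2 signal of knockout 1 minus knockout 2, with 1 point per measured gene, for the mitosis genes and 5 other cell cycle lists; red lines are medians and the grey line is the median of all genes, 0.00. The medians are 0.50 for the mitosis genes, 0.33 for other mitosis genes, 0.20 for DNA replication and 0.14 for the genes of the anaphase-promoting complex.

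The 4 further cell cycle lists, that of the anaphase-promoting complex included, had smaller median gaps between the knockout arrays than the mitosis genes. The difference between lists was not tested. The 25 measured genes of DNA replication had a median gap of 0.20 and 20 were lowest on knockout 2. Of them 7 were highest on knockout 1, and their mean there was 0.02 relative to the wild type, against -0.26 in knockout 2. Their leading genes by the moderated t were Gins3 (-0.42 ± 0.22) and Gins2 (-0.26 ± 0.15), subunits of the replicative helicase, the helicase subunit Mcm3 (-0.18 ± 0.11) and Tyms, thymidylate synthase (0.05 ± 0.03). The anaphase-promoting complex, as 15 genes for its subunits and its coactivator Fzr1, had a median gap of 0.14. Among them Anapc13 was at -0.25 ± 0.12, Anapc15 at -0.20 ± 0.09, Anapc4 at -0.19 ± 0.13 and Anapc7 at 0.08 ± 0.06. The 11 genes of MuvB, DREAM and B-MYB, whose products act on the CHR, had a median gap of -0.01. Lin37, a MuvB subunit, read 5.67, 4.95, 5.78, 5.87 and 5.59, and Lin52, another, 5.40, 5.84, 5.84, 5.84 and 6.20, so these subunits put the knockout arrays in opposite orders. E2f4, the repressor E2F of DREAM, was at 0.21 ± 0.11 and E2f5 at 0.07 ± 0.07. The 15 measured G1 cyclins, their kinases, CDK inhibitors and Rb1 also had a median gap of -0.01. Ccnd1, cyclin D1, was at 0.11 ± 0.08, Ccnd3 at -0.03 ± 0.03, the inhibitor Cdkn2d at -0.19 ± 0.09 and Rb1 at -0.05 ± 0.03. In each of these 4 lists 0 genes passed limma's test or an unadjusted p of 0.05.

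The arrays also differed in markers of other cells. Bulk signals cannot tell fewer cells of a kind from less RNA per cell, and the part of these differences in the mitosis pattern was not tested. The 5 measured epithelial markers (Epcam, Cdh1, Krt8, Krt18 and Krt14) had mean signals from 10.40 to 10.55 on all arrays. All 5 read higher on knockout 1 than on knockout 2, by 0.07 to 0.26 (38.4% of all genes read higher). The 11 measured luminal markers averaged 8.38 on knockout 1 and 8.09 on knockout 2, against 8.28 to 8.33 in the wild type. On knockout 2, 8 of them lay below all wild-type arrays (23.7% of all genes). For 2 of the 11, knockout 1 and knockout 2 each exceeded every wild-type value (2.63% of all genes). For 1 of the 11, each was under every wild-type value (2.80% of all genes). The 8 basal markers averaged 7.53 and 7.69, against 7.33 to 7.72. The endothelial list ran the other way from the mitosis genes, with means of 6.19 and 6.95 against 6.54 to 6.88 in the wild type. All 8 of its markers read lower on knockout 1 than on knockout 2 (9017 of 22180 over all genes). Pericyte markers averaged 5.55 and 6.07 (7 markers, wild type 5.64 to 6.08) and fibroblast markers 8.61 and 8.82 (8 markers, wild type 8.37 to 8.95). The 12 genes of the immediate-early and dissociation response averaged 8.74 on knockout 1 and 9.17 on knockout 2, against 8.68 to 8.82 in the wild type, and 11 of the 12 were higher on knockout 2 than on knockout 1. Markers of B and plasma cells averaged 3.85 and 3.86 (6 markers, wild type 3.90 to 4.06). Those of T and NK cells averaged 4.15 and 4.28 (6 markers, wild type 4.27 to 4.89). Macrophage markers averaged 6.21 and 5.98 (7 markers, wild type 5.88 to 6.40). Adipocyte markers averaged 5.20 and 5.41 (6 markers, wild type 5.22 to 5.26). Within several lists the markers went both ways. Knockout 1 minus knockout 2 ran from -0.82 to 0.06 for adipocytes (median 0.00) and from -0.25 to 0.99 for macrophages (median 0.06). It ran from -1.16 to 0.84 for basal markers (median -0.08) and from -0.55 to 1.15 for fibroblasts (median -0.39). Keratinocyte and hair markers averaged 3.61 and 3.66 (8 markers), with 4.57 on wild type 1 and 3.62 and 3.71 on the other wild-type arrays. The 10 measured mitochondrial transcripts averaged 11.22 and 11.19, against 11.05 to 11.16.

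**Figure D4:**
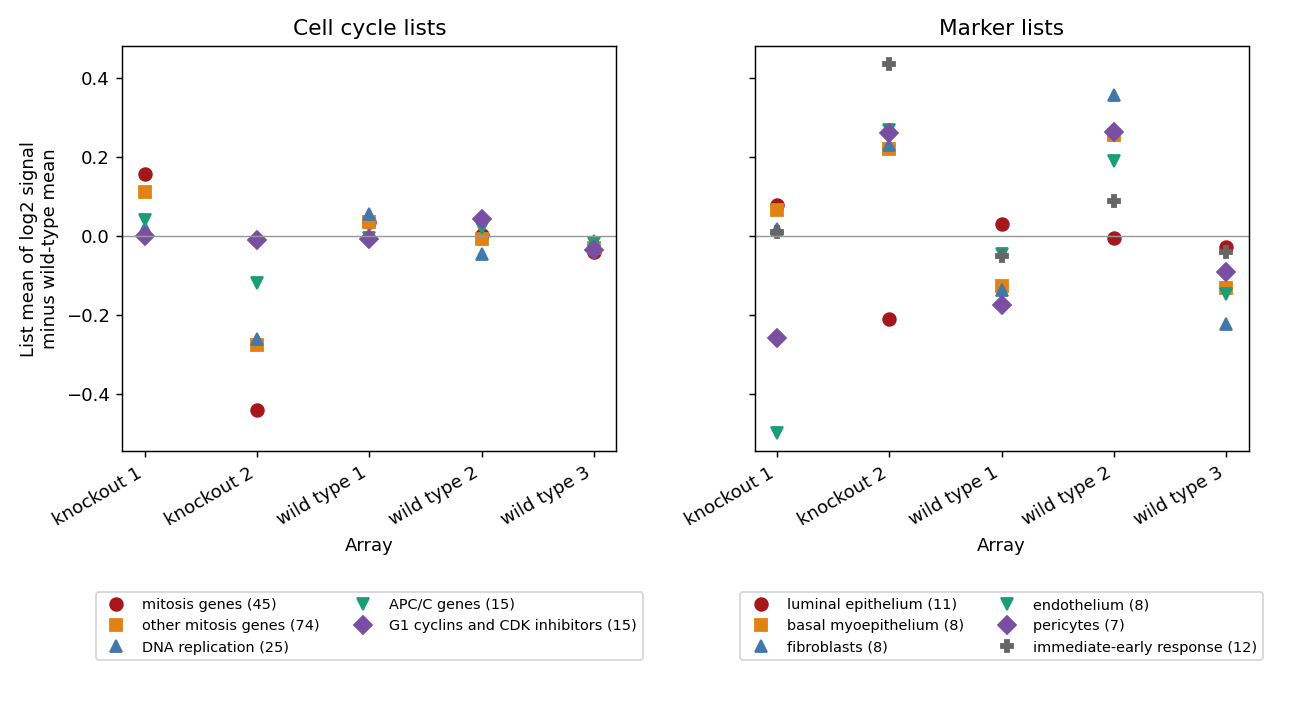
Mean log2 signal of each list on each array minus the mean of the 3 wild-type arrays, for cell cycle lists on the left and marker lists on the right, with the number of measured genes in brackets. The mitosis genes lie at 0.16 on knockout 1 and -0.44 on knockout 2, and the endothelial markers at -0.50 and 0.27.

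The targeted gene does not settle the genotype labels. Mmp14 read 7.98, 7.28, 8.15, 8.67 and 7.75 (-0.56 ± 0.39, limma adjusted p = 0.919), so knockout 1 lay within the wild-type range and knockout 2 below it. Within each run the knockout array read below the wild type, by a difference of -0.43 in run 1 and -0.46 in run 2. The wild-type arrays themselves spanned 0.93 log2 units. Stromal cells also express Mmp14, and the sources used here do not place its probes inside or outside the deleted exons.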

How the data were processed

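The deposited table holds log2 signals of 41345 probe sets on 5 arrays; RMA and limma are named, without versions, in the submitters' processing notes, and no genome build of the array is named in the sources used here. The authors' log2 values had array medians between 4.24 and 4.29 and were used as deposited. The platform annotation gave 1 symbol to 23521 probe sets; for genes with several, the one with the highest mean was kept, leaving 22180 genes. The knockout was compared with the wild type by lmFit and eBayes of limma 3.58.1 under R 4.3.3 (two-sided, no covariate, Benjamini-Hochberg over all genes, threshold 0.05). The number of arrays limits the precision. The script was tested on simulated data. The members and lists were chosen with earlier results of these data known, so no list was tested as a set. Named members are, per role, the 2 with the highest mean and the one with the largest moderated t, those whose groups do not overlap, and the 3 with the widest range; other members are given by their gaps, and up to 4 genes of each other list by moderated t. Lists were matched to the annotation by symbol, or by gene ID or synonym in a RefSeq table of GRCm38.p6 where the synonym is no other gene's symbol; every match was by symbol. Promoter windows came from RefSeq. Alternatives were other normalizations, a filter on dim genes, averaged probe sets, the run of array numbers or the replicate number as a block, array weights, other priors and leaving out each array. No background correction could be varied, since the table starts after it.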

Additional observations from a re-analysis of the deposited data

How the results depend on the processing

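With all 5 arrays, 0 mitosis genes and 0 of all genes passed limma's test under each alternative, the replicate number as a block included, and 0 in run 1 alone. Leaving out 1 array gave 0 to 14 mitosis genes and 0 to 1757 of all genes, and calls arose only without a knockout array (14 and 1757 without knockout 1, 7 and 835 without knockout 2). The median difference of the mitosis genes, -0.09, ran from -0.33 to 0.18 with 1 array left out. It was -0.0462 with the run as a fixed block and -0.12 with the replicate block. Added after seeing the data, it was 0.15 in run 1 alone, -0.34 in run 2 alone and -0.14 over genes with 5 different values. Whether equal replicate numbers mark a pairing could not be decided. Deviations of knockout 1 from its group mean correlated across genes at 0.245, 0.0436 and -0.2615 with those of wild type 1, 2 and 3. With 2 knockout arrays, the deviations of knockout 2 are those of knockout 1 with the sign reversed, so they add no further check. Of 20 named members, 17 kept their direction in each alternative with all arrays. The exceptions were Ube2c (0.0309) and Cenpe (0.0138) with the run as a fixed block and Ccna2 (-0.0523) with the replicate block. With 1 array left out, the ranges of those that changed sign were -0.53 to 0.45 for Ube2c, -0.43 to 0.0345 for Cdc20, -0.69 to 0.48 for Cenpe, -2.37 to 0.0055 for Ndc80, -0.41 to 0.47 for Cdca8, -0.22 to 0.33 for Mki67, -1.04 to 0.22 for Top2a, -1.18 to 0.24 for Anln, -0.11 to 0.028 for Ccnb2, -0.37 to 0.47 for Ccna2, -1.01 to 0.47 for Cdk1, -0.30 to 0.14 for Mad2l1, -0.35 to 0.18 for Bub1b and -0.33 to 0.0083 for Aurka. Mmp14 ran from -0.91 to -0.21. The precision is limited by 2 knockout arrays whose median gap was 0.50, and no detection calls were used.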
